A study of Mus musculus with 3 samples.

Results

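The genes described here are the Slc25 genes, which encode the mitochondrial carrier family. They were taken from the deposited array table as every main probe set whose gene symbol begins with Slc25a and a number, which gave 47 genes of the 30921 on the array, each read by 1 probe set that the files mark as matching its own transcript alone. The rule used the symbol and no measured value. Total RNA from the liver of ICR mice, an outbred laboratory stock, was read on 3 arrays of the MoGene-2_0-st type, with 1 array per group. The no treatment mice were left untreated. The TMA mice were given distilled water for 2 weeks and trimethylamine (TMA), a fishy-smelling amine that liver oxidises, for 24 hours. The EEC+TMA mice received TMA in the same way after 2 weeks of an oral extract, made with ethanol from the brown alga Ecklonia cava (EEC). Treatment began at 8 weeks of age and livers were taken at 10 weeks. The sources used here do not give the sex of the mice, the doses or any pooling of RNA over animals, so an array may stand for 1 animal or several. With 1 array per group there is no spread between animals and no test, and every difference below compares arrays rather than conditions. The TMA and no treatment groups differ in distilled water as well as in TMA, which cannot be told apart between those arrays. The EEC+TMA and no treatment groups likewise differ in both the extract and TMA.

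Mitochondrial carriers are small membrane proteins built from a repeated pair of membrane-spanning helices, and most of them sit in the inner mitochondrial membrane, where they exchange metabolites between the matrix and the cytosol. In liver they link the matrix to pathways that run on both sides of the membrane: ATP export, the urea cycle, the malate-aspartate shuttle, citrate export for fatty acid synthesis, and the entry of acylcarnitines for oxidation. Other members carry cofactors such as coenzyme A, NAD+ and glutathione, or iron for haem and iron-sulfur clusters.

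Values are the deposited log2 signals. Because probe sets differ in brightness, a value is compared between arrays for the same gene and never between genes. Values of a gene are given in the order untreated, TMA and EEC+TMA array. Genes were called measured at or above a background level, set for each array as the 95th percentile of 1525 probe sets for chemosensory receptor genes, at 3.14, 3.25 and 3.15. On this basis 37 of the 47 carriers were measured on all 3 arrays, 1 on 2 arrays and 9 on none. Hepatocyte markers were present, with the 6 fixed markers between 6.27 and 13.33 on the 3 arrays. The 39 probe sets for poly-A spike-ins had medians of 4.95, 5.76 and 4.98, and the 1352 exon normalization controls had medians of 6.43, 6.07 and 6.49. The TMA array thus stood apart in both kinds of control, and their part in the differences that use that array was not tested. In bulk liver RNA, fewer cells of a type and less RNA per cell cannot be told apart.

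**Figure D1:**
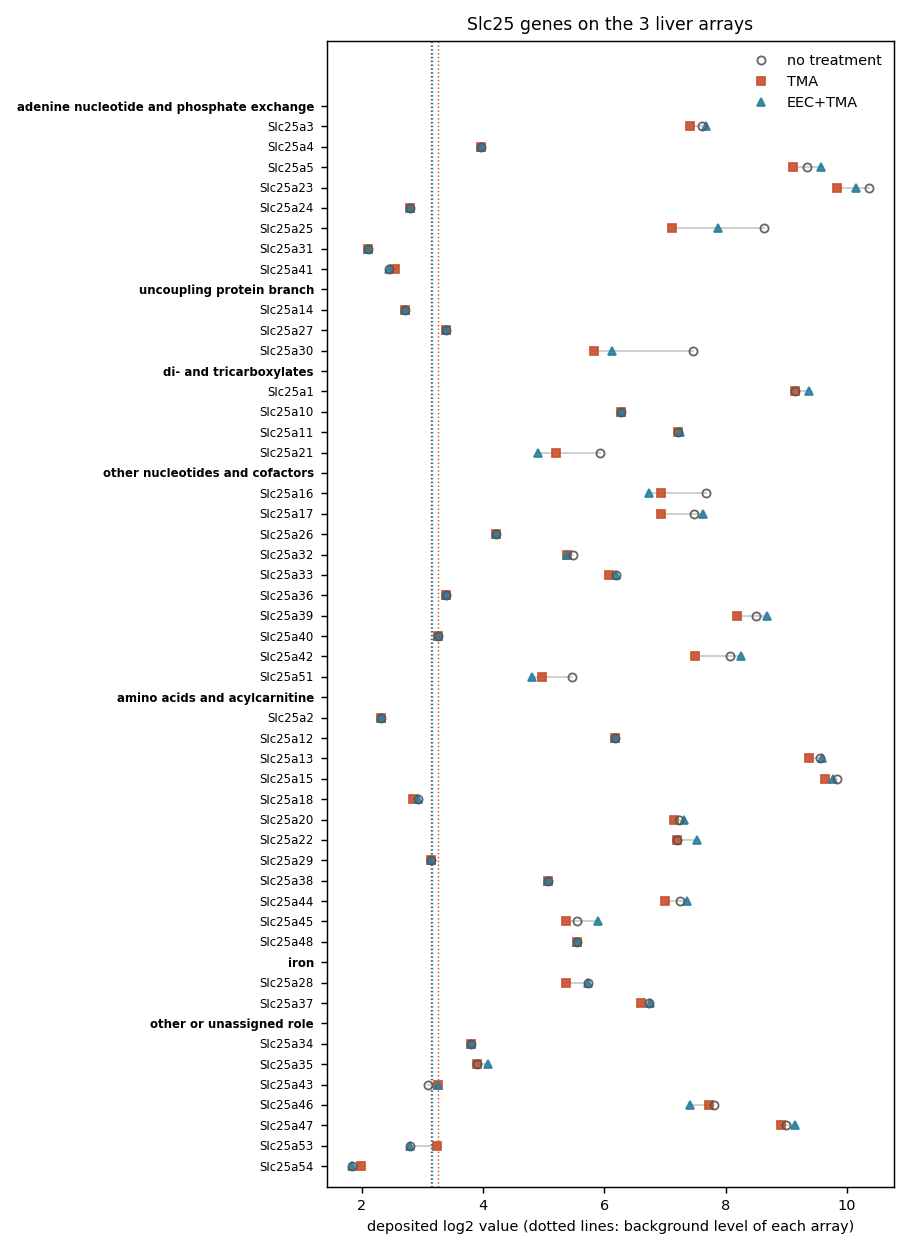
Deposited log2 value (horizontal axis) of 46 of the Slc25 genes on the untreated, TMA and EEC+TMA arrays, grouped by role, with dotted lines at each array's background level. The widest gaps are those of Slc25a30, at 7.47, 5.82 and 6.13, and Slc25a25, at 8.63, 7.12 and 7.88, while many genes have their 3 symbols on top of each other.

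The carriers that differed most between the untreated array and the TMA array were Slc25a30 and Slc25a25. Slc25a30 (Entrez 67554, chromosome 14, 75761999 to 75787037, minus strand), known as KMCP1 and a relative of the uncoupling proteins, read 7.47, 5.82 and 6.13. Slc25a25 (Entrez 227731, chromosome 2, 32414487 to 32451470, minus strand), a calcium-regulated carrier that exchanges ATP-Mg for phosphate, read 8.63, 7.12 and 7.88. In both genes the untreated array was highest, the TMA array lowest and the EEC+TMA array between them. Slc25a30 was 3.13-fold and Slc25a25 2.84-fold lower with TMA than without treatment. The authors' deposited table of 198 probe sets for this pair, which holds no fold under 2.51, lists them with signed folds of -3.13 and -2.84, and no Slc25 gene is in the authors' deposited table of 68 probe sets for EEC+TMA over TMA. Coordinates are those of the files, and the sources used here do not name their build. All 47 Slc25 loci overlapped the gene of the same symbol in the RefSeq table of GRCm38.p6.

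These differences were set against genes of like signal, meaning those measured on both arrays whose mean log2 value lay within 0.5 of the gene's own. For TMA minus no treatment, 11 of 1863 such genes, Slc25a30 included, differed by as much in size as Slc25a30 (0.590%). For Slc25a25 the count was 9 of 880 (1.02%). On the EEC+TMA array Slc25a30 was 2.53-fold lower than on the untreated array, a size met by 26 of 1768 genes of like signal (1.47%). Slc25a25 was 1.68-fold lower there, a size met by 36 of 733 (4.91%). From the TMA array to the EEC+TMA array Slc25a25 was 1.69-fold higher, whereas Slc25a30 was only 1.24-fold higher, a size met by 753 of 2684 genes (28.1%). The 2 genes thus lay close together in the first comparison and apart in the other.

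The sequence before the transcript start is shown for these 2 genes because they stood furthest apart between arrays. RefSeq (GRCm38.p6) lists 3 starts for Slc25a25 and 1 for Slc25a30. The 250 bases before the farthest upstream and the farthest downstream start of Slc25a25 and before that of Slc25a30 follow, 5′ to 3′ along the gene, with matches to the motifs searched in capitals. All lie on the minus strand, at chr2:32451471-32451720, chr2:32424067-32424316 and chr14:75787038-75787287.
Slc25a25 upstream start: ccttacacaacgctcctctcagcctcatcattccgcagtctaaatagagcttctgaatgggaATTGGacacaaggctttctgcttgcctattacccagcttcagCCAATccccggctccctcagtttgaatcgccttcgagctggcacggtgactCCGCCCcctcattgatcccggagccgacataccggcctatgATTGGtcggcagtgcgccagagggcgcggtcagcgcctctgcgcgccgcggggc
Slc25a25 downstream start: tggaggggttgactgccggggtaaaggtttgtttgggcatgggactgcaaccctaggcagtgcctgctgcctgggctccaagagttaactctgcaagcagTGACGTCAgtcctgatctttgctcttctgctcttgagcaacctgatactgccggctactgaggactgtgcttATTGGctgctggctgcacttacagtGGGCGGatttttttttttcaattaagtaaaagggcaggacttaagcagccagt
Slc25a30: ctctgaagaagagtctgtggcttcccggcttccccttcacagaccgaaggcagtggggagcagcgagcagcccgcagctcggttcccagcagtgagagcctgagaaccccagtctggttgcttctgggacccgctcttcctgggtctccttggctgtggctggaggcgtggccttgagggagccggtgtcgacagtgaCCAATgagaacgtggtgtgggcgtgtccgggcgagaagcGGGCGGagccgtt
The motifs, searched on both strands, were the cAMP response element TGACGTCA, the CCAAT box (CCAAT), the GC box (GGGCGG), the E-box (CACGTG), a forkhead site (TGTTTAC), a direct repeat bound by nuclear receptors (DR with 1 spacer base) and the TATA box (TATAAA). The downstream start of Slc25a25 held the palindromic cAMP response element, beginning at base -150 from the start, with 1 CCAAT box and 1 GC box. That element was in 1.55% of the 32851 RefSeq promoter windows of this length, and in 2 of the 46 windows of Slc25 genes, the other belonging to Slc25a36. The 46 windows came from 36 Slc25 genes, with each start of a gene counted as its own window. The upstream start of Slc25a25 held 3 CCAAT boxes and 1 GC box, the middle start 2 CCAAT boxes, and Slc25a30 1 of each. CCAAT boxes were in 33.8% and GC boxes in 32.7% of all windows, and in 21 and 32 of the 46 Slc25 windows. The E-box was in 6.02% of all windows and 8 of the 46, and the TATA box in 12.4% and 2 of the 46. The forkhead site (3.17% of all windows) and the direct repeat (0.0335%) were in none of the 46. A match is a run of letters and not a shown binding site.

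Over the whole family, 2 of the 38 carriers measured on 1 array or both were lower with TMA than without treatment by 2-fold or more, beside 1.21% of the 16643 genes so measured. None was higher by that much, beside 0.631% of genes. At 1.5-fold, 4 carriers were lower, against 6.24% of genes, with Slc25a16 and Slc25a21 joining, and none was higher (2.29% of genes). Between the TMA and EEC+TMA arrays no carrier was 2-fold apart, beside 0.596% of 16612 genes higher and 0.361% lower. At 1.5-fold Slc25a17, Slc25a25 and Slc25a42 were higher (4.54% of genes) and none was lower (2.14%). For EEC+TMA minus no treatment, Slc25a30 and Slc25a21 were at least 2-fold lower, beside 1.07% of 16506 genes, and none higher, beside 0.164%. At 1.5-fold 5 carriers were lower, the further ones being Slc25a16, Slc25a25 and Slc25a51, beside 3.30% of genes, and none higher (0.921%). The comparisons share arrays, so their counts are not independent of each other.

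**Figure D2:**
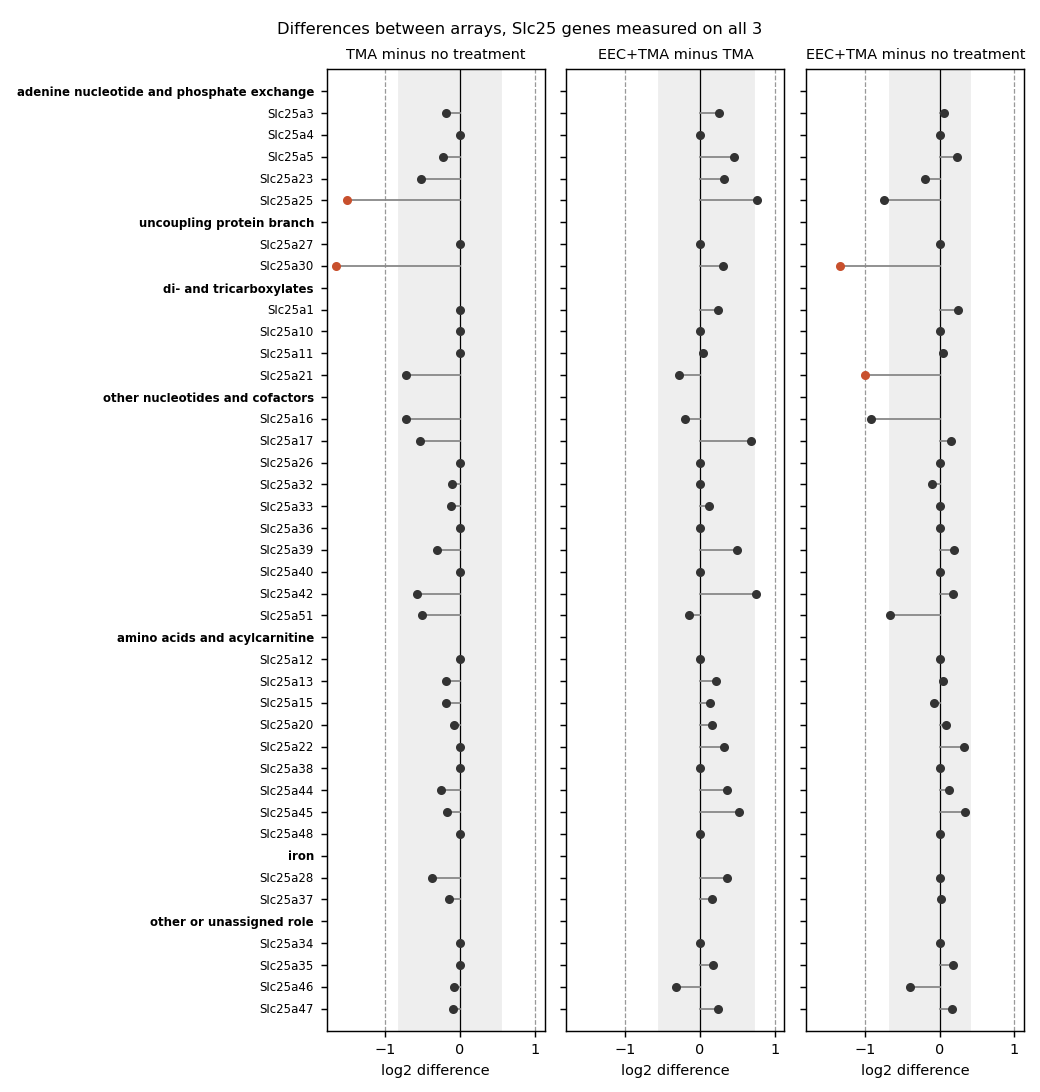
Log2 difference (horizontal axis) of 36 of the Slc25 genes measured on all 3 arrays, for each pair of arrays. Grey bands hold the central 95% of all genes measured on both arrays, dashed lines mark 2-fold, and red points lie past it: Slc25a25 at -1.51 and Slc25a30 at -1.65 in the left panel, Slc25a30 at -1.34 and Slc25a21 at -1.0038 in the right panel.

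The ATP-Mg/phosphate carriers and the ADP/ATP translocases comprised 8 genes with the phosphate carrier. Of these 5 were measured on all arrays, and 4 were lower and 1 identical on the TMA array against the untreated array. Under quantile normalization 4 were lower and 1 higher. Under loess all 5 fell below 0, but the differences of Slc25a4 and Slc25a5 rounded to 0. The median of -0.23 shrank to -0.02 and -0.04 under these scalings. Slc25a23, the second ATP-Mg/phosphate carrier measured here, read 10.36, 9.84 and 10.16. It kept the order of Slc25a25 with a difference of 1.44-fold between the first pair, a size met by 43 of 182 genes of like signal (23.6%). Slc25a5, the ADP/ATP translocase ANT2, read 9.34, 9.11 and 9.57, so the TMA array was lowest and the EEC+TMA array highest, 1.37-fold above TMA. Its TMA difference of -0.23 shrank to -0.02 under quantile normalization and 0 under loess, and its EEC+TMA minus TMA difference of 0.46 to 0.28 and 0.23. The phosphate carrier Slc25a3 read 7.61, 7.42 and 7.67 in the same order of arrays, though its TMA difference of -0.19 turned to 0.05 under quantile normalization. Slc25a4, the ANT1 translocase known from heart and muscle, had 3.96 on every array. Slc25a24 (2.79 on every array), Slc25a31, the ANT4 translocase of testis (2.09 on every array), and Slc25a41 (2.44, 2.54 and 2.44) lay below background.

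In the uncoupling protein branch Slc25a30 was the only one of 3 genes whose value differed between arrays. Slc25a27, known as UCP4, had 3.39 on every array, just above background, and Slc25a14, known as UCP5, had 2.70, below it. The uncoupling proteins proper carry other symbols: Ucp2 had 5.52 on every array, while Ucp1, of brown fat, and Ucp3, of muscle, lay below background at 3.0 and 2.61.

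Among the carriers of di- and tricarboxylates, Slc25a21 (Entrez 217593, chromosome 12, 56712634 to 57197472) stood out from the other members. It encodes the oxodicarboxylate carrier, which moves oxoadipate from lysine and tryptophan breakdown, and it read 5.92, 5.20 and 4.91. Both treated arrays were thus low, by 1.65-fold and 2.01-fold, and the EEC+TMA array was the lower. The latter size was met by 39 of 3155 genes of like signal (1.24%), and its log2 difference of -1.0038 sat at the edge of the 2-fold rule. Just outside the rule was Slc25a16, at -0.92. Slc25a1, which exports citrate for fatty acid synthesis, read 9.14, 9.14 and 9.38, and Slc25a11, the oxoglutarate-malate carrier, 7.21, 7.21 and 7.25. Slc25a10, the dicarboxylate carrier, had 6.28 on every array. Those 3 genes hence did not differ between the first pair of arrays as deposited.

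All 11 carriers of other nucleotides and cofactors were measured, and those described here followed different orders across the arrays. Slc25a16, linked to the supply of coenzyme A in mitochondria, read 7.67, 6.94 and 6.74. Slc25a51, the NAD+ carrier of mammalian mitochondria, read 5.47, 4.97 and 4.81. In both genes the untreated array was highest and the EEC+TMA array lowest, 1.90-fold and 1.58-fold below it. Among genes of like signal, 46 of 1381 (3.33%) and 120 of 3315 (3.62%) differed by as much between those 2 arrays. Slc25a42, the carrier of coenzyme A in exchange for adenine nucleotides, read 8.07, 7.50 and 8.25. Slc25a17, a peroxisomal carrier of coenzyme A and other nucleotide cofactors, read 7.48, 6.94 and 7.63. In these 2 genes the TMA array was lowest and the EEC+TMA array highest, 1.68-fold and 1.61-fold above TMA. Sizes as large were met by 74 of 854 (8.67%) and 97 of 1233 (7.87%) genes of like signal. As deposited, the genes tied to coenzyme A followed different orders, Slc25a16 being low on both treated arrays and Slc25a42 and Slc25a17 on the TMA array alone. For TMA minus no treatment their differences were -0.72, -0.57 and -0.53. Sizes as large were met by 141 of 1252 (11.3%), 193 of 920 (21.0%) and 265 of 1334 (19.9%) genes of like signal. Under quantile normalization these differences shrank to -0.48, -0.33 and -0.29.

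The glutathione carrier Slc25a39 read 8.50, 8.19 and 8.69, with the EEC+TMA array 1.41-fold above the TMA array. A size as large was met by 179 of 631 genes of like signal (28.4%). That difference of 0.50 shrank to 0.28 under quantile normalization and 0.31 under loess. The TMA minus no treatment difference of -0.31 shrank to -0.06 and -0.13. Slc25a40, the paralog of Slc25a39, had 3.25 on every array, at the background level of the TMA array. The pyrimidine nucleotide carriers read 6.19, 6.07 and 6.19 for Slc25a33 and 3.39 on every array for Slc25a36. Slc25a32, which carries folate and FAD, read 5.48, 5.38 and 5.38. Slc25a26, the carrier of S-adenosylmethionine, had 4.21 on every array.

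Amino acid and acylcarnitine carriers differed by less than 1.5-fold between any pair of arrays. Of 12 genes 9 were measured, and for TMA minus no treatment 5 were lower, 4 identical and none higher, with a range from -0.25 to 0, but 6 of the 9 were higher under quantile normalization and 7 under loess. Slc25a13, known as citrin, the aspartate-glutamate carrier of hepatocytes, read 9.55, 9.37 and 9.59, and Slc25a15, the ornithine carrier of the urea cycle, 9.84, 9.64 and 9.77. Both were lowest on the TMA array, by 1.14-fold each, but under loess both differences from the untreated array turned to 0.05. Slc25a20, which exchanges carnitine and acylcarnitines, read 7.23, 7.15 and 7.31, with a TMA difference that turned to 0.18 and 0.06 under quantile normalization and loess. Slc25a44, a branched-chain amino acid carrier, read 7.25, 7.0 and 7.36. Slc25a22, a glutamate carrier, read 7.20, 7.20 and 7.53. Slc25a45, whose reported substrates are methylated amino acids on the way to carnitine, read 5.55, 5.37 and 5.89. It was the measured gene of this group with the widest step from the TMA array to the EEC+TMA array, at 1.43-fold, a size met by 287 of 3084 genes of like signal (9.31%). Slc25a48, reported to bring choline into mitochondria, had 5.55 on every array. Slc25a12, the aspartate-glutamate carrier also called aralar, had 6.18 and the glycine carrier Slc25a38 5.07 on every array. Slc25a2, a second ornithine carrier, at 2.32, Slc25a29, a basic amino acid carrier, at 3.13, and Slc25a18, a second glutamate carrier, between 2.84 and 2.92, lay below background.

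The iron carriers of mitochondria are the mitoferrins. Slc25a28, mitoferrin 2, read 5.73, 5.36 and 5.73, and Slc25a37, mitoferrin 1, which is abundant in red cell precursors, read 6.74, 6.60 and 6.76. Both were lowest on the TMA array, by 1.29-fold and 1.10-fold, but Slc25a37 turned to 0.07 under quantile normalization. Of the 4 erythroid markers, Alas2 read 6.37, 5.94 and 6.05 and Hba-a1 5.84 on every array, while the others, Hbb-bs (2.35 on every array) among them, lay below background. The part of erythroid cells in the mitoferrin values was not tested.

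Of the remaining members Slc25a47, a carrier found mostly in liver, read 9.0, 8.91 and 9.15, its TMA difference turning to 0.09 under quantile normalization and 0.13 under loess. Slc25a46, an outer membrane protein that acts in mitochondrial fusion and shape, read 7.81, 7.73 and 7.41, lowest on the EEC+TMA array by 1.32-fold against the untreated array. Slc25a34 had 3.79 on every array and Slc25a35 read 3.89, 3.89 and 4.07. Slc25a43 read 3.09, 3.25 and 3.25 and was at background. Slc25a53 (2.79, 3.23 and 2.79) and Slc25a54 (1.84, 1.98 and 1.84) lay below background on every array. Of 4 pairs of neighbouring family members, 2 held 1 gene below background and 1 measured on all arrays. Slc25a41 ends 2057 bases before Slc25a23 on chromosome 17, and Slc25a29 ends 15246 bases before Slc25a47 on chromosome 12, and in these pairs the first was the one below background. Slc25a54 and Slc25a24, 6462 bases apart on chromosome 3, were both below background, and Slc25a43, 18449 bases from the measured Slc25a5 on chromosome X, was at it.

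Of the 37 carriers measured on both arrays, TMA minus no treatment was below 0 for 22, exactly 0 for 14 and above 0 for 1, with a median of -0.10. Over all 15716 genes measured on both arrays, 37.6% were lower, 43.3% identical and 19.1% higher, with a median of 0. This lean of the family depended on the scaling: median centring, which moves every gene by -0.05, gave a median of -0.15, quantile normalization 21 lower and 16 higher with a median of -0.02, and a loess correction for signal 24 lower and 13 higher with a median of -0.003. From TMA to EEC+TMA, 21 of 38 were above 0, 13 identical and 4 below, with a median of 0.12, against 36.4%, 44.3% and 19.3% of 15756 genes. Quantile normalization gave 25 higher and 13 lower with a median of 0.04, and loess 26 and 12 with a median of 0.001. For EEC+TMA minus no treatment, which does not use the TMA array, 16 were higher, 12 identical and 9 lower, with a median of 0. Of 16143 genes 25.4%, 54.6% and 19.9% were so. Under quantile normalization, which left no identical values among them, 28 were higher and 9 lower. Their median was then 0.04, beside 0.02 over all genes. The 6 hepatocyte markers showed a like lean as deposited: 5 were lower and 1 identical with TMA (median -0.25), and all 6 were higher on the EEC+TMA array than on the TMA array (median 0.41). Their part in the family's lean was not tested.

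Read across the 3 arrays, 13 carriers were lower with TMA than without treatment and at or above the untreated value on the EEC+TMA array, or 35.1% of the 37 measured on all arrays, as were 20.9% of 15655 genes. Under other scalings the carriers stood nearer to all genes. The shares were 37.8% against 35.6% with quantile normalization, where 7 of the 13 kept the pattern among 14 carriers. With loess they were 45.9% against 38.7%, where 10 kept it among 17, and with median centring 73.0% against 64.8%. Those that joined under quantile normalization and loess, Slc25a4, Slc25a26, Slc25a27, Slc25a34, Slc25a35, Slc25a36 and Slc25a40, had equal untreated and TMA values as deposited. Their TMA minus no treatment differences were -0.04 to -0.01 under quantile normalization and rounded to 0 under loess, so small shifts of equal values raised these shares. A further 4, Slc25a15, Slc25a23, Slc25a25 and Slc25a30, had the EEC+TMA value between the others (8.46% of genes), and 3 of them kept this under quantile normalization and loess. In 5, Slc25a16, Slc25a21, Slc25a32, Slc25a46 and Slc25a51, the EEC+TMA value was at or below the TMA value (8.33% of genes). Of these, 3 kept that order under quantile normalization and 4 under loess. Slc25a1, Slc25a11, Slc25a22 and Slc25a35 had equal untreated and TMA values and a higher EEC+TMA value (5.14% of genes). Under quantile normalization the TMA minus no treatment differences of the first 3 moved to 0.21, 0.24 and 0.24. The EEC+TMA minus TMA difference of Slc25a11 turned to -0.16 there. The values were identical on all 3 arrays for 10 carriers, and for 36.6% of genes. Of the 47 carriers 27 shared their exact value with another probe set on at least 1 array, and 11 did on every array, so an identical value is a property of the deposited summary and does not show equal RNA. Slc25a25 and Slc25a30 shared none of their values, nor did Slc25a16 and Slc25a42. The untreated value of Slc25a21, on which its 2-fold difference rests, was shared with 19 other probe sets, the EEC+TMA value of Slc25a51 with 56 and the untreated value of Slc25a17 with 4.

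**Figure D3:**
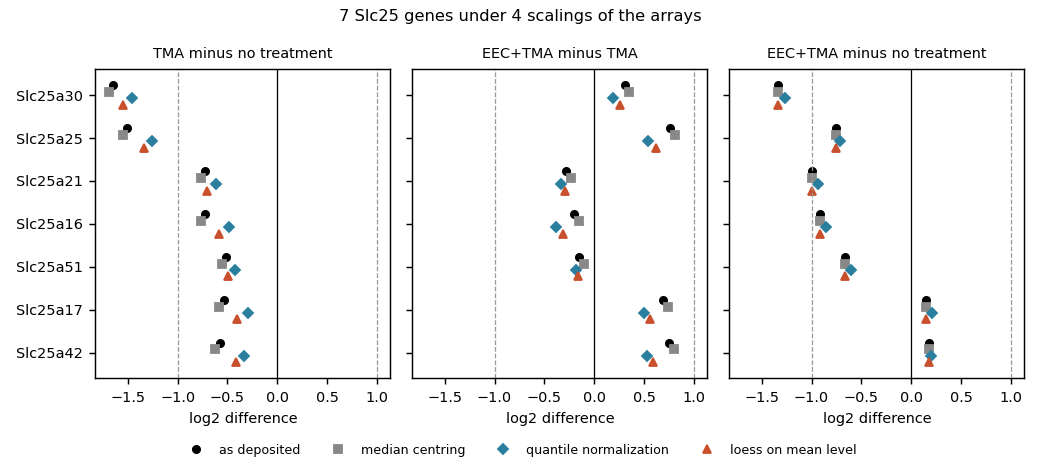
Log2 difference (horizontal axis) of the 7 Slc25 genes at least 1.5-fold apart in any pair, as deposited and under 3 other scalings, with dashed lines at 2-fold. Slc25a30 stays between -1.69 and -1.46 and Slc25a25 between -1.55 and -1.26 in the left panel, and Slc25a21 moves from -1.0038 to -0.94 under quantile normalization in the right panel.

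For the 7 carriers at least 1.5-fold apart in any pair, each sign held under every scaling tried. Slc25a30 lay between -1.69 and -1.46 and Slc25a25 between -1.55 and -1.26 for TMA minus no treatment, both past 2-fold throughout. Slc25a21 fell short of 2-fold for EEC+TMA minus no treatment under quantile normalization, at -0.94. Slc25a17 at 0.50 and Slc25a42 at 0.53 fell short of 1.5-fold for EEC+TMA minus TMA there, as did Slc25a25 at 0.54. Slc25a17 also fell short under loess, at 0.56. Slc25a16 fell short of 1.5-fold for TMA minus no treatment at -0.48 under quantile normalization and -0.58 under loess.

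The genomic span of a gene was set against its difference as a description across genes, which share arrays and are not independent. For EEC+TMA minus no treatment Spearman's rho with span was -0.47 over the 37 carriers and -0.20 over 16143 genes. For TMA minus no treatment it was -0.21 over 37 carriers and -0.32 over 15716 genes. For EEC+TMA minus TMA it was -0.24 over 38 carriers and 0.19 over 15756 genes, so carriers and all genes had opposite signs there.

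**Figure D4:**
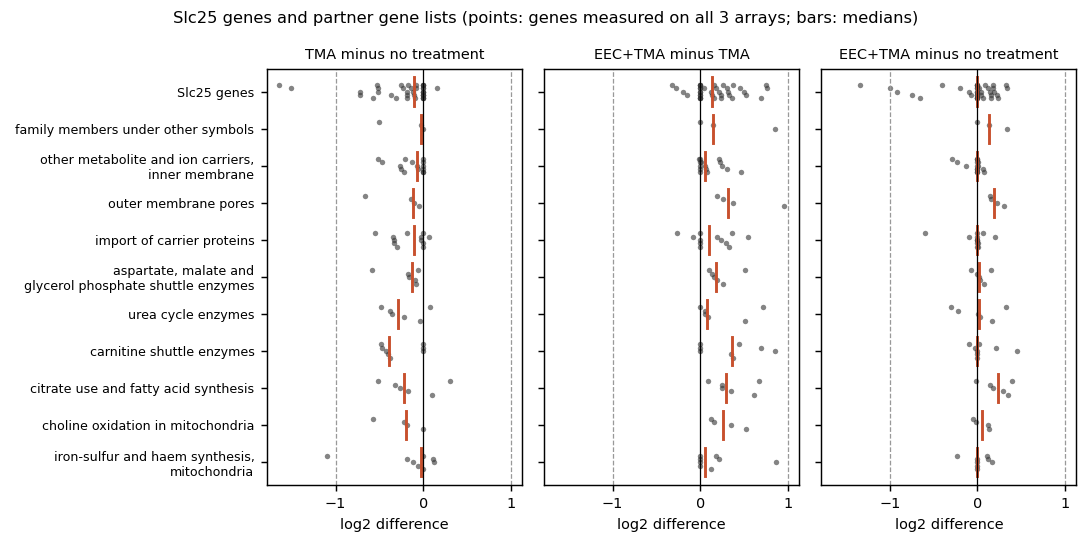
Log2 difference (horizontal axis) of Slc25 genes and of 10 lists of partner genes measured on all 3 arrays, with points for genes, bars for medians and dashed lines at 2-fold. The only partner gene past 2-fold is Alas1, at -1.10 in the left panel.

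Genes that work beside the carriers were taken from 10 lists with 82 entries, of which 77 were on the array and 72 measured on all 3 arrays. Only Alas1 was 2-fold apart in any pair, and it was lower in TMA minus no treatment. In that pair 1.21% of all genes were at least 2-fold lower and 0.631% higher. The shares were 0.361% and 0.596% in EEC+TMA minus TMA, and 1.07% and 0.164% in EEC+TMA minus no treatment. Alas1, the first enzyme of haem synthesis, read 8.55, 7.45 and 8.33, hence 2.14-fold lower with TMA than without treatment, and fell short of 2-fold at -0.85 under quantile normalization and -0.92 under loess. Among the 8 genes of iron-sulfur and haem synthesis 4 were lower, 2 identical and 2 higher for TMA minus no treatment, with a median of -0.03 that turned to 0.18 under quantile normalization and 0.06 under loess.

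All 6 enzymes of the aspartate, malate and glycerol phosphate shuttles were lower with TMA than without treatment (median -0.13) and higher on the EEC+TMA array than on the TMA array (median 0.18), but the medians turned to 0.08 and -0.04 under quantile normalization and to 0.12 and -0.07 under loess. Gpd2, the mitochondrial glycerol phosphate dehydrogenase, differed most, at 7.0, 6.42 and 6.93. Of the 8 carnitine shuttle genes 5 were lower and 3 identical, with a median of -0.39, which was -0.18 under quantile normalization and loess. From TMA to EEC+TMA their median was 0.36, or 0.15 and 0.11 under those scalings. The carnitine uptake gene Slc22a5 read 5.05, 4.65 and 5.50.

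The 6 urea cycle enzymes had a median of -0.29 with 5 lower on the TMA array, or -0.06 under quantile normalization and loess, and Asl, argininosuccinate lyase, read 8.67, 8.28 and 9.0. The 6 genes of citrate use and fatty acid synthesis were all higher on the EEC+TMA array than on the TMA array, with a median of 0.30, or 0.11 under quantile normalization and loess. Acaca, acetyl-CoA carboxylase, read 7.12, 6.60 and 7.27. The 4 enzymes of mitochondrial choline oxidation had a median of -0.20 for TMA minus no treatment, which was 0.06 under quantile normalization and -0.04 under loess. Dmgdh, dimethylglycine dehydrogenase, read 9.48, 8.91 and 9.43.

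The 4 outer membrane pore genes were lower on the TMA array, with a median of -0.12 that turned to 0.07 under quantile normalization, and all were higher on the EEC+TMA array than on the TMA array, with a median of 0.32, or 0.15 under quantile normalization and 0.23 under loess. Vdac3, a voltage-dependent anion channel, read 6.74, 6.08 and 7.04, which is 1.94-fold between the last 2 arrays. Of 12 measured genes for import of carrier proteins 8 were lower, 3 identical and 1 higher on the TMA array (median -0.11). Under quantile normalization 7 were lower and 5 higher (median -0.05), and under loess 8 and 4 (median -0.09). Tomm70a, the outer membrane receptor for carrier precursors, read 8.13, 7.79 and 7.53. Of the 15 measured inner membrane carriers outside the family 9 were lower and 6 identical, with a median of -0.07, or 0.03 under quantile normalization, and Sfxn1, a serine carrier, read 9.22, 8.71 and 8.93. Mtch2, an outer membrane relative of the family, read 8.21, 7.70 and 8.55, which put the EEC+TMA array 1.80-fold above the TMA array.

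Markers of other cell types differed between the arrays as well. The 5 Kupffer cell markers ranged from 5.12 to 6.62 on the untreated array, 5.63 to 6.73 on the TMA array and 5.33 to 7.01 on the EEC+TMA array, with 4 higher and 1 identical for TMA minus no treatment. The 5 sinusoidal endothelium markers ranged from 4.24 to 8.19, 4.24 to 7.55 and 4.24 to 8.24, with 3 lower and 2 identical. The 5 stellate cell markers ranged from 3.75 to 8.02, 3.75 to 7.63 and 3.75 to 7.63, with 3 lower and 2 identical. For TMA minus no treatment the Kupffer, endothelium and stellate medians were 0.21, -0.41 and -0.32, beside -0.25 for hepatocyte markers. For EEC+TMA minus TMA they were 0.14, 0.58 and 0, beside 0.41. Of 5 cholangiocyte markers 3 were measured on all arrays, with 2 higher and 1 lower for TMA minus no treatment. The others, Krt19 and Epcam, lay below background at 2.61 on every array. Of the muscle, brown fat and testis markers 1, 2 and 1 of 3 each were measured on all arrays. The part of these cells in the carrier values was not tested.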

How the data were processed

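Liver RNA was measured on 3 arrays, 1 per group. The authors deposited 1 log2 signal per probe set and array, and the sources used here do not say how it was summarised or normalized. A second deposited table holds the same log2 values to within 5e-05. A signed fold, named a score here, comes with the authors' deposited lists and is negative where the first array is lower. Columns were matched to groups through the labels and the design text.

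The 47 Slc25 genes were all kept. Each array was raised to its background level before genes were called 2-fold apart, and differences are otherwise those of the deposited values. No test was made. Every carrier was named, except that 1 carrier and 1 marker gene are counted but not reported by name here. Partner genes were named where 2-fold apart or differing most in their list, and Ucp1, Ucp2 and Ucp3 outside that rule. The members, the 10 partner lists and the 9 marker lists were chosen with earlier results of these data known, and the promoter motifs after the values were seen. Alternatives were median centring, quantile normalization, loess (span 0.3), other background levels and folds, and other probe set rules. Counts by role and by order of the arrays were set under the scalings after seeing the data. The fold script was tested on simulated data. Python 3.11.15, pandas 2.3.3 and statsmodels 0.14.6 were used. The number of arrays limits the precision.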

Additional observations from a re-analysis of the deposited data

How the results depend on the processing

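The counts and medians of the family were the same, or within the tolerance of 0.1 (log2) for medians and 1.5 times for counts, under median centring, the background at the 99th percentile, the mean of all probe sets, unique probe sets alone and the second table. Quantile normalization left 1 carrier 2-fold apart for EEC+TMA minus no treatment. Loess brought the median for EEC+TMA minus TMA to 0.001, and the values with no background level brought that median and the one for TMA minus no treatment to 0. At 1.5-fold 4, 3 and 5 carriers were apart in TMA minus no treatment, EEC+TMA minus TMA and EEC+TMA minus no treatment, and at 3-fold 1, 0 and 0. No 2-fold carrier changed sign. For TMA minus no treatment 8 of 38 carriers changed sign under quantile normalization and 5 under loess, none over 0.19 in size as deposited. For EEC+TMA minus TMA 4 and 3 did, none over 0.22. Differences of exactly 0 as deposited, 14 and 13 in these pairs, have no sign and could not count. Some moved off 0, such as Slc25a11 and Slc25a22, both to 0.24 for TMA minus no treatment under quantile normalization. Over all genes the 2-fold counts for TMA minus no treatment were 202 lower and 105 higher as deposited, 130 and 148 under quantile normalization, and 149 and 133 under loess; for EEC+TMA minus TMA they were 60 and 99, 91 and 60, and 85 and 68. The causes were not tested. No array could be left out and no paired analysis was possible because each group has 1 array.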
